A study of Homo sapiens with 4 samples.

Results

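Golgins are long coiled-coil proteins that stand out from the membranes of the Golgi apparatus and catch transport vesicles before these fuse. Each golgin sits in its own region of the stack, held there by a small GTPase of the ARL, ARF or RAB family, by an adaptor or by a membrane segment of its own, so that the set of golgins helps sort which vesicle docks where. The 10 golgin genes described here were GOLGA1, GOLGA4, GCC1 and GCC2, whose proteins carry a GRIP domain for the trans-Golgi network, GOLGA2, USO1 and TRIP11 of the cis side, GOLGA5 and GOLGB1, whose proteins are anchored by a membrane segment, and GOLGA3. They are the rows of a table of 20263 genes whose Ensembl IDs map to these symbols, and all 10 were found. The family was chosen from results of the comparison described here, in which GOLGA4 stood among the largest decreases. The golgins' differences between the groups are therefore given as a description, no p-value is printed for them, and they support no statement about the family.

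The cells were MDA-MB-231, a human triple-negative breast cancer line. They were treated for 24 h with Rib_CA, named in the series title as a derivative of ribociclib, which inhibits the kinases CDK4 and CDK6, or with DMSO, a common solvent. The concentration of Rib_CA was not given in the sources used here. RNA was sequenced from 2 Rib_CA libraries and 2 DMSO libraries, and the labels do not say whether the libraries of a group came from separate cultures.

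Total counts per library ranged from 34774542 to 38865103. Transcripts of the mitochondrial genome took 5.78 and 3.13% of the counts in Rib_CA 1 and 2, against 8.68 and 21.7% in DMSO 1 and 2. VIM, CD44 and AXL, mesenchymal markers of this line, lay at 389.8 CPM or more (read counts per 1000000, with library sizes scaled by the TMM method) in every library. The oestrogen receptor gene ESR1 lay at 0.102 to 0.663 CPM, PGR at 0.372 to 1.76 CPM and the epithelial cadherin gene CDH1 at 0 to 0.0766 CPM, while the epithelial gene EPCAM was present at 9.50 to 12.2 CPM. A gene is termed called where edgeR's quasi-likelihood test gave an adjusted p under 0.05; of 13667 tested, 275 were called higher and 699 called lower in Rib_CA. With libraries scaled by total counts alone the split was 260 higher and 328 lower, and the median of all log2 fold changes moved by 0.20. CPM is a share of the library, so it shows neither the number of cells nor the amount of RNA per cell.

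The golgin mRNAs differ in base composition. The GC content of the longest annotated transcript ran between 37.4% (TRIP11) and 54.8% (GOLGA2), against a median of 48.5% over all genes tested. To show what this means at the level of sequence, a stretch of 90 coding bases is given for the 2 golgins with the lowest GC content, TRIP11 and GCC2, and the 2 with the highest, GOLGA3 and GOLGA2. Each stretch is the first, in steps of a codon, whose GC content is nearest to that of the whole coding sequence, read 5′ to 3′ from GENCODE release 29 transcripts (GRCh38), with G and C in capitals.
TRIP11: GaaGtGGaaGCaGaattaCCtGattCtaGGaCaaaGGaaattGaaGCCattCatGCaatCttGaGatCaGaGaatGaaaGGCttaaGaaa
GCC2: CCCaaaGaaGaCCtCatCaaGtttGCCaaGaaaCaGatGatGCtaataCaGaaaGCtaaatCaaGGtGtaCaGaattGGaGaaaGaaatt
GOLGA3: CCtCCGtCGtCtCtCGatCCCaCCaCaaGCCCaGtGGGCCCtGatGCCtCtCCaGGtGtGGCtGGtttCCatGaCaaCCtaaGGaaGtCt
GOLGA2: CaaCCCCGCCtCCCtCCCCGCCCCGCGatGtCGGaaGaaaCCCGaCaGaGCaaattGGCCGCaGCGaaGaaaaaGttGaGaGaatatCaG
Of the 90 bases, 34 are G or C in TRIP11 and 33 in GCC2, against 53 in GOLGA3 and 52 in GOLGA2. GOLGA4, described first among the results, has the fourth lowest GC content of the 10, at 39.4%.

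All 10 golgin genes were expressed and passed the filter on low counts. In Rib_CA, 7 had a lower and 3 a higher fitted level than in DMSO. The fit called 5 of the 10 lower (GOLGA4, TRIP11, GOLGB1, GCC2 and GOLGA5), beside 5.11% of all genes tested, and none higher, beside 2.01%. An unadjusted p under 0.05 was given to 7 of the 10 and to 3879 of the 13667 genes. DESeq2, which called 1459 genes lower and 991 higher over the whole table, called 6 golgins lower and 1 higher. No golgin had overlapping groups: both Rib_CA libraries lay below both DMSO libraries for 7, as for 28.4% of all genes tested, and above them for 3, as for 30.4%. The same 5 golgins were called with the 13 mitochondrially encoded genes left out, whose share of the counts differed between the libraries. Since the comparison entered the choice of the family, nothing is read from any of these counts of golgins. The median log2 fold change of the golgins was -1.16, against 0.03 over all genes tested.

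**Figure D1:**
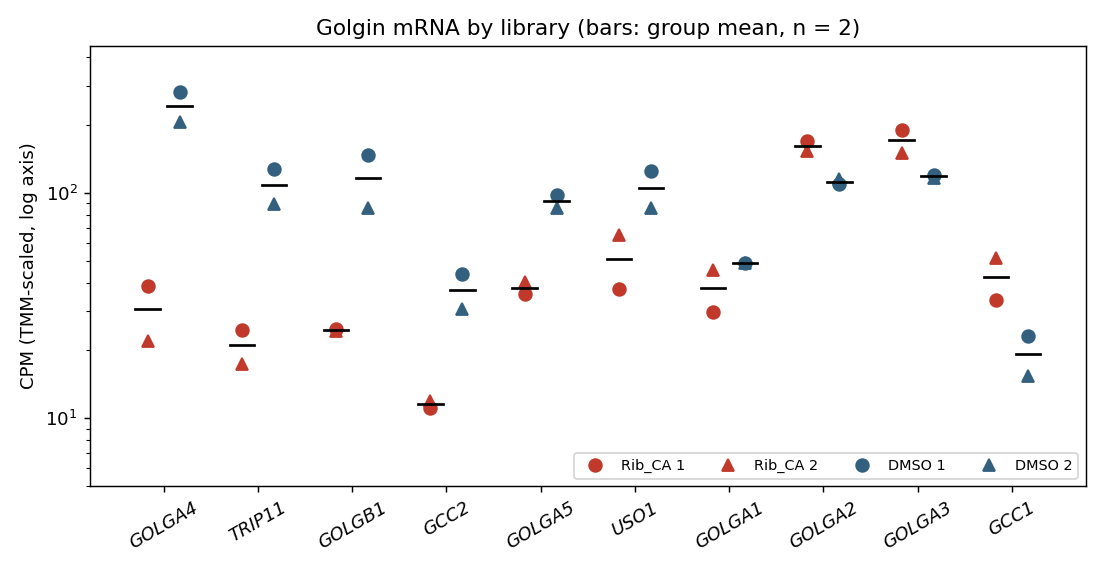
CPM of each golgin gene (log axis) in Rib_CA 1 and 2 (red, left of each pair) and DMSO 1 and 2 (blue, right), ordered by fold change, with circles for replicate 1, triangles for replicate 2 and bars for the group mean of 2 libraries. The points of the groups lie apart for every gene, with the widest gap at GOLGA4 and the narrowest at GOLGA1, and only GOLGA2, GOLGA3 and GCC1 have the red points on top.

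The GRIP-domain golgins hold to the trans-Golgi network, where they receive vesicles from endosomes, and this group held the golgins furthest apart from each other in response. GOLGA4 (ENSG00000144674, chr3:37243177-37366751, plus strand) encodes a long golgin that the GTPase ARL1 recruits through its GRIP domain. Its level was 38.8 CPM in Rib_CA 1 and 22.0 CPM in Rib_CA 2, against 282 CPM in DMSO 1 and 206 CPM in DMSO 2. Every Rib_CA library lay far below every DMSO library, although the Rib_CA libraries themselves differed 1.76-fold. GOLGA4 was 8.03-fold lower (log2 fold change -3.00 ± 0.38 SE), which placed it 45th of 13667 genes from the lowest. With 1 library left out, its log2 fold change was -3.51 to -2.66. These fits reuse the libraries from which the family was chosen, so they only describe how far the value rests on 1 library.

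GCC2 (ENSG00000135968, chr2:108448561-108509415, plus strand) encodes a tether for vesicles that return mannose 6-phosphate receptors from endosomes. It was at 11.1 and 11.9 CPM in Rib_CA 1 and 2, against 43.6 and 30.5 CPM in DMSO 1 and 2. The Rib_CA libraries were close together and the DMSO libraries were not. GCC2 was 3.22-fold lower (log2 fold change -1.69 ± 0.31 SE), a call that was lost without DMSO 1 and with total-count scaling. Of its longest transcript, 31.3% is at least 95% identical, over stretches of at least 100 bases, to transcripts of 7 RGPD genes, whose proteins share its GRIP-domain end. How the authors' counting treated reads that fit several genes is not given in the sources used here, so the GCC2 values are uncertain. The 7 RGPD rows together held 21.0 and 20.1 CPM in Rib_CA, against 56.5 and 42.9 CPM in DMSO. The sum of GCC2 and these rows was 2.70-fold lower by the ratio of mean CPM. The RGPD rows held the larger part of that sum in every library, so it is no estimate for GCC2 itself.

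GOLGA1 (ENSG00000136935, chr9:124878357-124948492, minus strand) encodes a further trans-Golgi golgin that ARL1 recruits. Its level was 29.8 CPM in Rib_CA 1 and 45.6 CPM in Rib_CA 2, against 49.0 and 49.1 CPM in DMSO 1 and 2. Rib_CA 2 lay just below the DMSO libraries, and the difference between the Rib_CA libraries exceeded that between Rib_CA 2 and DMSO. Its log2 fold change of -0.38 ± 0.30 SE was not called, and it ranged from -0.72 to -0.15 with 1 library left out. GOLGA1 shares 14.7% of its exonic bases with SCAI on the same strand.

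GCC1 (ENSG00000179562, chr7:127580618-127593611, minus strand) also encodes a GRIP-domain golgin, which acts in retrieval from early endosomes. It stood on the other side, at 33.4 and 51.6 CPM in Rib_CA 1 and 2, against 23.1 and 15.3 CPM in DMSO 1 and 2. Its level was 2.21-fold higher (log2 fold change 1.14 ± 0.36 SE), which was not called, although DESeq2, the fit without Rib_CA 1 and the fit with crossed replicate pairs did call it. GCC1 had the highest fold change of the 10, and its annotated coding sequence is among the shortest, with 775 residues against 2243 in GOLGA4. Up to 8.22% of its exonic bases are shared with a single gene on the opposite strand (ARF5 or FSCN3), and the use of strand in the counting is not given in the sources used here.

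At the cis side, golgins receive vesicles from the endoplasmic reticulum and earlier Golgi carriers. TRIP11 (ENSG00000100815, chr14:91965991-92040896, minus strand) encodes GMAP210, a tether that binds highly curved vesicles at its start and ARF1 near its end, and whose loss causes a lethal skeletal dysplasia. It was at 24.8 and 17.4 CPM in Rib_CA 1 and 2, against 127 and 89.5 CPM in DMSO 1 and 2. The groups were well apart, and replicate 1 was the higher library in both. TRIP11 was 5.14-fold lower (log2 fold change -2.36 ± 0.33 SE), with log2 fold changes of -2.67 to -2.09 when 1 library was left out.

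USO1 (ENSG00000138768, chr4:75724593-75814286, plus strand) encodes p115, which ties incoming vesicles to GM130 and giantin and binds the GTPase RAB1. It was at 37.4 and 64.9 CPM in Rib_CA 1 and 2, against 125 and 85.6 CPM in DMSO 1 and 2. Here the libraries within each group were spread widely, though the groups did not overlap. The level was 2.06-fold lower (log2 fold change -1.04 ± 0.36 SE) and was not called, except in the fit without Rib_CA 2, in DESeq2 and with crossed replicate pairs.

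GOLGA2 (ENSG00000167110, chr9:128255829-128275995, minus strand) encodes GM130, the cis-Golgi receptor of p115, which is held at the membrane by the stacking protein of GORASP1. It was at 170 and 153 CPM in Rib_CA 1 and 2, against 109 and 115 CPM in DMSO 1 and 2. The libraries of each group were close together, with a modest gap between the groups. Its log2 fold change of 0.53 ± 0.25 SE (1.44-fold higher) was not called, and it stayed between 0.41 and 0.60 with 1 library left out.

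GOLGA5 and GOLGB1 encode golgins with a membrane segment at their end, which act within the stack. GOLGB1 (ENSG00000173230, chr3:121663199-121749767, minus strand) encodes giantin, the longest golgin, with 3269 residues in the longest annotated coding sequence. It was at 24.8 and 24.3 CPM in Rib_CA 1 and 2, against 148 and 86.1 CPM in DMSO 1 and 2. The Rib_CA libraries were nearly equal, while DMSO 1 was 1.72-fold above DMSO 2, the widest gap between the DMSO libraries among the 10 golgins. GOLGB1 was 4.76-fold lower (log2 fold change -2.25 ± 0.34 SE), and the call was lost without DMSO 1, where the log2 fold change was -1.82. GOLGA5 (ENSG00000066455, chr14:92794231-92839963, plus strand) encodes a golgin of the stack's rims, with 731 residues the shortest of the 10. It was at 35.8 and 40.2 CPM in Rib_CA 1 and 2, against 98.5 and 85.4 CPM in DMSO 1 and 2. Both groups were tight and far apart. GOLGA5 was 2.42-fold lower (log2 fold change -1.27 ± 0.26 SE), a call lost without either DMSO library, with total-count scaling and with the replicate block.

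GOLGA3 (ENSG00000090615, chr12:132768909-132828858, minus strand) encodes a golgin that is held at Golgi membranes without a membrane segment and is a known substrate of caspases. It was at 191 and 151 CPM in Rib_CA 1 and 2, against 120 and 117 CPM in DMSO 1 and 2. The DMSO libraries were nearly equal and both Rib_CA libraries lay above them. The level was 1.44-fold higher (log2 fold change 0.53 ± 0.26 SE) and was not called. GOLGA3 had a long transcript of 9252 bases and a GC content of 54.0%, whereas GOLGB1 and TRIP11, of similar length, had 42.0 and 37.4%. Any part of length or GC content in their fold changes was not tested.

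Summed over the 10 golgins, the level was 590 ± 10.3 CPM in Rib_CA and 1003 ± 174 CPM in DMSO (SD, n = 2 each). The sum of the GRIP-domain golgins was 122 ± 12.7 CPM in Rib_CA and 350 ± 68.2 CPM in DMSO (SD, n = 2 each). Of this sum GOLGA4 alone held 30.4 CPM in Rib_CA and 244 CPM in DMSO. GOLGA1 and GCC2 were also lower in Rib_CA, and GCC1 was higher. The cis-Golgi tethers summed to 234 ± 2.36 CPM in Rib_CA and 326 ± 51.0 CPM in DMSO. The membrane-anchored golgins summed to 62.6 ± 2.84 CPM in Rib_CA and 209 ± 53.0 CPM in DMSO (SD, n = 2 each). In Rib_CA, 5 of the 10 golgins were higher in library 1 than in library 2, and the ratio of library 1 to library 2 ran between 0.576 for USO1 and 1.76 for GOLGA4. In DMSO, 8 of the 10 were higher in library 1, by up to 1.72-fold for GOLGB1.

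Per kilobase of the longest transcript, which allows a comparison between genes, the order of the golgins differed between the groups. In Rib_CA, GOLGA2 led with 38.0 ± 2.80 CPM per kb, followed by GOLGA3 at 18.5 ± 3.05, GOLGA5 at 12.8 ± 1.06, USO1 at 12.4 ± 4.71, GCC1 at 10.2 ± 3.10 and GOLGA1 at 7.84 ± 2.33 (SD, n = 2 each). GOLGA4 came 7th at 3.91 ± 1.53 CPM per kb, and GOLGB1, TRIP11 and GCC2 were lowest, at 2.19 ± 0.03, 2.11 ± 0.52 and 1.53 ± 0.07. From GOLGA5 to GOLGA1 each neighbour overlapped the next in its library values, as did GOLGB1 and TRIP11, and the other neighbours were apart. In DMSO, GOLGA4 was highest at 31.4 ± 6.89 CPM per kb and overlapped GOLGA5 at 31.0 ± 3.11 (SD, n = 2 each). GOLGA2 at 26.4 ± 0.96 and USO1 at 25.5 ± 6.82 came next and overlapped each other. GOLGA3, TRIP11, GOLGB1 and GOLGA1 lay between 12.8 and 10.2 CPM per kb with overlap at each step, and GCC2 and GCC1 were lowest, at 4.92 ± 1.23 and 4.63 ± 1.32. With the mean length of a gene's transcripts in place of the longest, GOLGA4 was again 7th in Rib_CA and 1st in DMSO, and GOLGA2 again 1st in Rib_CA. Other ranks moved. In Rib_CA, GOLGB1 went from 8th to 10th, GCC2 from 10th to 9th and TRIP11 from 9th to 8th, and GCC1 and USO1 changed places. In DMSO, GOLGA2 went from 3rd to 2nd and GOLGA5 from 2nd to 3rd, and the order among GOLGA3, TRIP11, GOLGB1 and GOLGA1 changed.

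**Figure D2:**
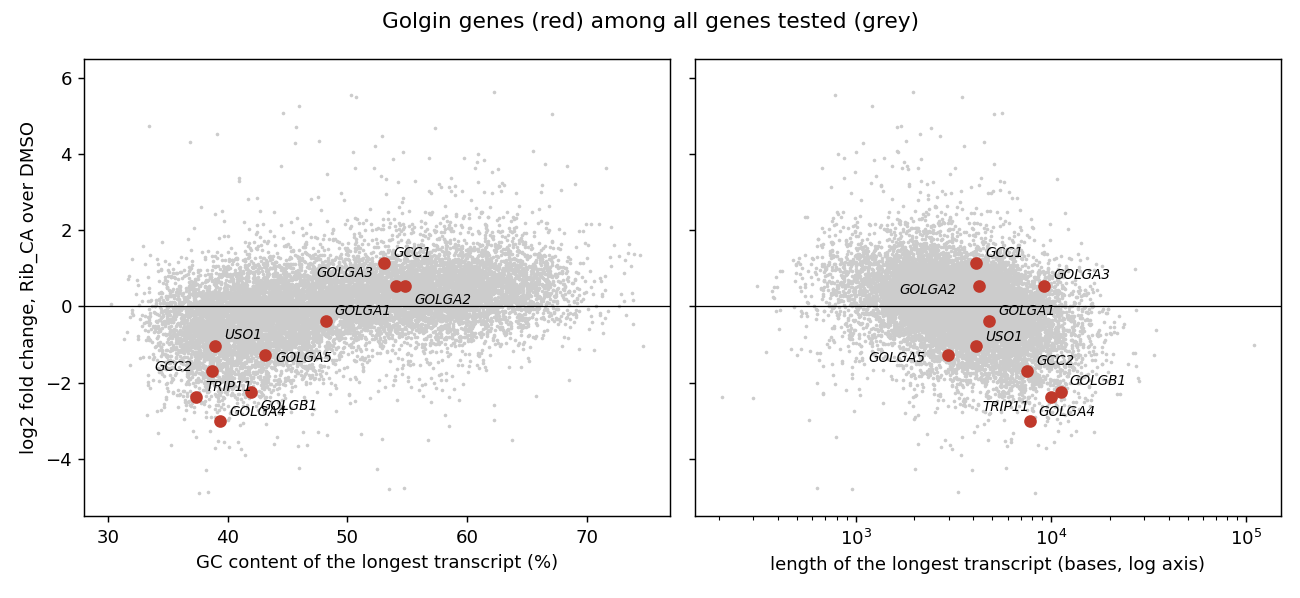
Log2 fold change of Rib_CA over DMSO for all genes tested (grey) and the 10 golgin genes (red) against the GC content (left, %) and the length (right, bases, log axis) of the longest transcript. The grey cloud tilts upward with GC content and downward with length, and the golgins span both slopes, from TRIP11 at 37.4% GC to GOLGA2 at 54.8%.

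Fold change moved with transcript composition, in the golgins and over the whole table. The 3 golgins with the highest GC content, GOLGA2, GOLGA3 and GCC1 (53.1 to 54.8%), were the 3 with higher levels in Rib_CA, and the 7 with lower levels had 37.4 to 48.2%. Across the 10 golgins, Spearman's rho of log2 fold change with GC content was 0.78 and Pearson's r 0.90, and with transcript length rho was -0.45 and r, on log10 length, -0.47. Across 13651 genes with an annotated transcript the same values were 0.48 and 0.43 for GC content and -0.34 and -0.33 for length. Genes share libraries and are no independent replicates, so these are descriptions. USO1 and GOLGA4 had similar GC contents of 38.9 and 39.4%, log2 fold changes of -1.04 and -3.00, and transcripts that differed in length, of 4135 and 7772 bases. GCC2, with 38.7% GC and 7537 bases, was close to GOLGA4 in both measures and had a log2 fold change of -1.69.

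When each library was corrected for a smooth trend over GC content and transcript length, each golgin kept its direction. No golgin and no gene at all was then called in edgeR, with 7 golgins and 3397 genes at an unadjusted p under 0.05, and after the correction for GC content alone none was called either, with 6 golgins and 3651 genes at that level. GOLGA4 was 4.35-fold lower after the correction for both (log2 fold change -2.12 ± 0.41 SE), and the values for TRIP11 and GOLGB1 were -1.32 ± 0.34 and -1.31 ± 0.26. GCC2 came to -0.86 ± 0.25, GOLGA5 to -0.98 ± 0.20 and USO1 to -0.49 ± 0.23. GOLGA3 moved the other way, to 0.66 ± 0.19, while GOLGA2 came to 0.32 ± 0.19, GCC1 to 0.99 ± 0.38 and GOLGA1 to -0.30 ± 0.28. After the correction for GC content alone, GOLGA3 instead came closer to zero, at 0.25 ± 0.20 SE. Each trend was taken from the libraries themselves and so also takes away any treatment difference that follows composition; the part of composition in the golgins' differences was not tested.

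**Figure D3:**
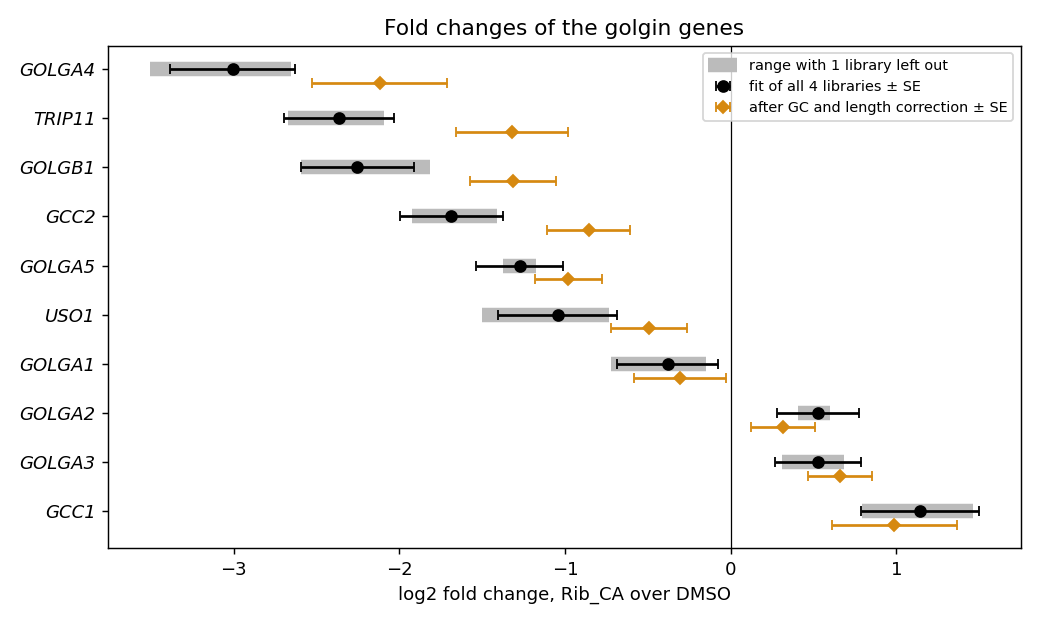
Log2 fold change of each golgin gene, Rib_CA over DMSO, in the fit of all 4 libraries (black, ± SE), with the range when 1 library is left out (grey bars), and after the GC and length correction (orange, ± SE). GOLGA4 stays lowest in both, at -3.00 and -2.12, and the 3 genes right of zero stay there.

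The 5 genes whose values over the 4 libraries were most like those of GOLGA4, by Euclidean distance of centred log2 CPM among the 10068 genes that averaged 10 CPM or more in either group, were TPR of the nuclear pore, KNL1 of the kinetochore, the topoisomerase gene TOP2A, ATAD2 and the chaperone gene HSP90AA1. The distances were 0.0895 to 0.323 on the log2 scale over 4 libraries. TPR, the nearest, had 66.5 and 36.1 CPM in Rib_CA 1 and 2, against 461 and 322 CPM in DMSO 1 and 2. The transcripts of TPR, KNL1, TOP2A and ATAD2 had GC contents of 38.1 to 40.1% and lengths of 5565 to 9708 bases, beside 39.4% and 7772 bases for GOLGA4, while that of HSP90AA1 had 45.2% and 3510 bases. Among the golgins, TRIP11 came nearest, as the 52nd gene in this order, then GOLGB1 as the 134th.

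Other genes of Golgi tethering and transport were followed in 10 lists with 128 genes, all of which were tested. In these lists 13 genes were called lower and 1 called higher in Rib_CA, which is 10.2 and 0.78% of the members, beside 5.11 and 2.01% of all genes tested. The median log2 fold change was -0.07, and 71 of the 128, called or not, had a negative value. The 13 called lower were 2.43-fold to 6.80-fold lower and had transcripts of 34.8 to 46.6% GC. Over the 128 genes, rho of log2 fold change with GC content was 0.53 (Pearson's r 0.55). Most of the 13 lost the call without DMSO 1, and most lost it without DMSO 2. Over all genes tested, fewer genes were also called lower in each of these fits, so such losses are not particular to these lists.

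The partners that hold golgins to the Golgi include small GTPases and the GRASP proteins. ARL1, the GTPase that recruits GRIP-domain golgins, was at 58.0 and 72.0 CPM in Rib_CA 1 and 2, against 82.2 and 82.4 CPM in DMSO 1 and 2, with a log2 fold change of -0.34 ± 0.26 SE that was not called (edgeR's quasi-likelihood test, adjusted p = 0.427) and that was 0.16 after the GC and length correction. RAB6A, which binds several golgins of the trans side, had a log2 fold change of 0.19 ± 0.27 SE (adjusted p = 0.702 in edgeR), RAB1A one of -0.59 ± 0.25 SE (adjusted p = 0.178) and ARF1 one of 0.26 ± 0.30 SE (adjusted p = 0.609). Among these GTPases, their receptor and exchange factors, 1 of 21 was called lower and none higher, a count near the shares of all genes tested. ARFGEF1, an exchange factor that loads ARF proteins, was at 21.7 and 21.1 CPM in Rib_CA, against 84.8 and 60.5 CPM in DMSO (3.39-fold lower, adjusted p = 0.0293 in edgeR). The call of ARFGEF1 was lost without DMSO 1. Its relative ARFGEF2, at a log2 fold change of -0.91 ± 0.28 SE, and the ARF-related GTPase ARFRP1, at 1.14 ± 0.35 SE, were not called by edgeR (adjusted p = 0.0927 and 0.0953) and were called by DESeq2 (adjusted p = 0.0279 and 0.0264). GORASP1 and GORASP2, whose proteins stack the cisternae, had log2 fold changes of 0.08 ± 0.37 SE and -0.61 ± 0.40 SE, neither of them called (adjusted p = 0.916 and 0.359 in edgeR). GORASP2 lay at 169 and 149 CPM in Rib_CA 1 and 2, against 151 and 333 CPM in DMSO 1 and 2, so that DMSO 2 alone stood apart.

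In the list of GRASPs, further golgins and golgin-binding proteins, 3 of 17 were called lower and none higher, beside 5.11 and 2.01% of all genes tested. AKAP9, a giant scaffold of centrosome and Golgi that binds GM130, was at 10.8 and 8.02 CPM in Rib_CA 1 and 2, against 75.8 and 52.0 CPM in DMSO 1 and 2 (6.80-fold lower, adjusted p = 0.0285 in edgeR). It was the 1 gene of these lists that was called with any library left out, and its log2 fold change of -2.77 was -1.63 after the GC and length correction. GOLIM4, a cargo receptor with a coiled coil, was 3.09-fold lower and MACF1, a cytoskeletal linker that binds the golgin of GOLGA4, 2.83-fold lower (adjusted p = 0.0285 and 0.0385 in edgeR), both calls lost without either DMSO library.

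The multi-subunit tethers work beside the golgins, and their lists are too short to set their counts apart from the 5.11 and 2.01% of all genes tested. None of the 8 COG genes was called, the smallest p being those of COG2, COG4 and COG5 with log2 fold changes of -0.31, 0.61 and -0.53, and none of the 6 NRZ genes, in which ZW10, NBAS and USE1 had log2 fold changes of -1.01, -0.83 and 0.71. In GARP and EARP 1 of 5 was called lower. This was VPS50, at 6.15 and 6.18 CPM in Rib_CA, against 24.4 and 17.1 CPM in DMSO (3.36-fold lower, adjusted p = 0.0342 in edgeR). In the TRAPP complexes 1 of 14 was called lower, TRAPPC8 (2.79-fold lower, adjusted p = 0.0456 in edgeR). VPS51 and VPS54 of GARP had log2 fold changes of 0.95 and -0.96, and TRAPPC6A and TRAPPC11 of 2.47 and -1.11, none of them called by edgeR, while DESeq2 called VPS51, TRAPPC6A and TRAPPC11. TRAPPC6A was scarce, at 1.51 and 2.30 CPM in Rib_CA, against 0.317 and 0.364 CPM in DMSO. VPS50 and TRAPPC8 lost their calls without either DMSO library.

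For the 4 lists that follow, the shares of all genes tested were 5.11% called lower and 2.01% called higher, and no set test was run. Among fusion and coat genes, 3 of 18 in the SNARE list were called lower. They were NSF, the ATPase that takes SNARE complexes apart, and the Sec1/Munc18 genes SCFD1 and VPS45 (2.45-fold, 2.43-fold and 2.51-fold lower, adjusted p = 0.0370, 0.0477 and 0.0469 in edgeR). NAPA, which works with NSF and is named after its value was seen, had a log2 fold change of 0.23 that was not called (adjusted p = 0.623 in edgeR). In the COPII coat, which carries cargo out of the endoplasmic reticulum, 2 of 12 were called lower. These were SEC24B and SEC31A (3.58-fold and 2.94-fold lower, adjusted p = 0.0285 and 0.0320 in edgeR). SEC24A had a log2 fold change of -0.94 that edgeR did not call and DESeq2 did. In the COPI coat none of 9 was called, and COPB1, COPB2 and COPE had log2 fold changes of -1.03, -1.02 and 0.77. Of 18 Golgi enzymes and resident proteins, the mannosidase gene MAN2A1 and the GalNAc-transferase gene GALNT1 were called lower (3.14-fold and 2.70-fold, adjusted p = 0.0326 and 0.0478 in edgeR). TMED9, a cargo receptor of early carriers, was called higher (2.32-fold, adjusted p = 0.0450 in edgeR). Of the genes called in these 4 lists, SEC24B lost its call without DMSO 2, MAN2A1 without DMSO 1, and the others on leaving out DMSO 1 and on leaving out DMSO 2.

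**Figure D4:**
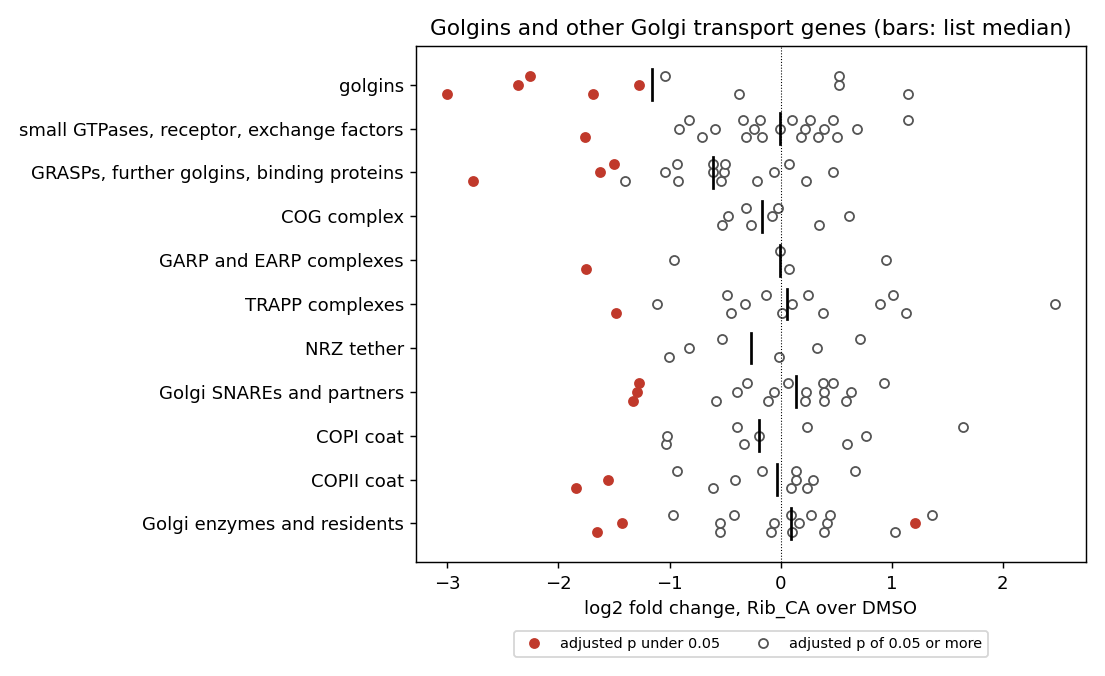
Log2 fold change of Rib_CA over DMSO for the 10 golgins and the 10 lists of other Golgi transport genes, with filled red points for genes called (adjusted p under 0.05), open points for the others and a bar at each list's median. The golgin median lies at -1.16, the list of GRASPs, further golgins and binding proteins at -0.61, and the other medians between -0.27 and 0.14.

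Promoters of 8 of the 10 golgins were matched, with 10 starts in all, in RefSeq sequences of GRCh38.p14 that run from 250 bases before to 50 bases after a gene's start. GOLGA4 and USO1 were not among them. The letters ACGTGGC of the Golgi apparatus stress response element, at which the transcription factor TFE3 acts, were found on either strand in 3 of these 10 promoters, of GOLGA1, GOLGA3 and GOLGA5, and in 3.22% of 35116 promoters of the same length. The promoters of GOLGA1 (chr9:124941034-124941333, minus strand) and GOLGA5 (chr14:92794055-92794354, plus strand) are shown because the element stands at nearly the same distance from the start, beginning 181 and 180 bases before it, with its letters in capitals; in GOLGA5 it reads on the other strand.
GOLGA1: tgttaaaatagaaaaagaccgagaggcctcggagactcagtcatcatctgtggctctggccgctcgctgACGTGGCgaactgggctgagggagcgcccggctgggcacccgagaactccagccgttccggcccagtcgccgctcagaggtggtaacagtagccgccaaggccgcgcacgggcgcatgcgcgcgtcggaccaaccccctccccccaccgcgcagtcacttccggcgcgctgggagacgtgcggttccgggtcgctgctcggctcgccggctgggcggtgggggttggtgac
GOLGA5: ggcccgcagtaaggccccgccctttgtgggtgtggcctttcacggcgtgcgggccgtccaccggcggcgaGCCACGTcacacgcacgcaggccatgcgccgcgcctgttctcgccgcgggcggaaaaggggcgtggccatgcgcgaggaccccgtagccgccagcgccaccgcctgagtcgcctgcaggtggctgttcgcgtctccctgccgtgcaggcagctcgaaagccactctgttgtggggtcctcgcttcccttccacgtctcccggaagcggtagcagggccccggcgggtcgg
In both, the element overlaps the letters TGACGT of the cyclic AMP response element, which stood in 4 of the 10 promoters (of GOLGA1, GOLGA5, GCC1 and GCC2) and in 7.98% of all promoters. CCAAT was found in 3 of the 10 (of GOLGA2, GOLGB1 and GCC2), beside 34.6% of all promoters. The ETS letters CCGGAAG stood in 4 of the 10 (of GOLGA1, GOLGA5 and GOLGA3, the last with 3 starts in all), beside 10.3%. The GOLGA3 windows at chr12:132829032-132829331 and chr12:132828820-132829119 overlap and share an ETS site, so by gene these letters stood in 3 of 8. The golgins that share the stress response letters had log2 fold changes of -0.38, 0.53 and -1.27, so they lay on both sides of zero. A match shows only that these letters stand in the window.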

How the data were processed

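Messenger RNA libraries were prepared from column-purified RNA of MDA-MB-231 cells with a Hieff NGS MaxUp kit, per the labels' protocols. The authors deposited raw, unnormalised counts for 20263 human Ensembl genes in 4 libraries. No aligner, counter, strand setting or rule for multiply mapping reads is given in the sources used here. Per the submitters' processing notes the builds were GRCm38 and mm10, names of a mouse assembly, although the gene IDs are human. Symbols were found for 20148 IDs. Positions, lengths and GC contents came from GENCODE release 29 (GRCh38), which held 20224 IDs. Total counts ranged from 34774542 to 38865103 per library.

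The test was edgeR 4.0.16 under R 4.3.3: filterByExpr (minimum count 10, minimum total 15) kept 13667 genes, libraries were scaled by TMM (factors 0.872 to 1.14), and glmQLFit (robust) with glmQLFTest compared Rib_CA with DMSO on 2 residual degrees of freedom. P-values were adjusted by the Benjamini-Hochberg method over all genes tested, with a threshold of 0.05. Standard errors are the absolute log2 fold change over the root of F. P-values measure the spread between these libraries, which may be technical. Libraries of a group differed by 257 (DMSO) and 265 (Rib_CA) times their degrees of freedom in a chi-square over genes, so none was a repeat deposit. The fit was tested on 3 simulations per fold with 200 of the 13667 genes changed. At 4-fold it recovered 127 to 137 of the 200, with 12 to 20 false calls. At 8-fold it recovered 181 to 188, with 11 to 19 false calls. A gene that is not called may therefore still differ.

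The GC and length corrections used smooths (mgcv 1.9.3, 6 basis functions) of each library's deviations as offsets. Near-identical sequence was found with BLAST 2.17.0. The alternatives included DESeq2 1.42.0 and limma 3.58.1 (voom). The members, gene lists, tests and alternatives were chosen with earlier results of these data known. Named were all golgins, up to 3 genes per list with the smallest p, 6 partners, and the 5 genes nearest to GOLGA4. The replicate numbers share no stated batch. The RGPD sum and the crossed pairing were added after seeing the data.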

Additional observations from a re-analysis of the deposited data

How the results depend on the processing

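Each of the 10 golgins kept its direction under all alternatives. The count of all genes called (974) was 588 with total-count scaling, 2450 with DESeq2, 1991 with crossed replicate pairs, 0 after the GC correction and 0 after the GC and length correction, and 173 to 2868 with 1 library left out (a group left with 1 library takes its spread from the other group). The count of golgins called lower (5) was 3 with total-count scaling (GCC2 and GOLGA5 lost), 0 after either correction and 2 to 6 with 1 library left out; without DMSO 1, GOLGA4 and TRIP11 were called. The count of other Golgi transport genes called (14) was 5 with total-count scaling, 31 with DESeq2, 27 with crossed pairs, 0 after either correction and 2 to 35 with 1 library left out. The golgins' median log2 fold change was -0.66 after the GC correction and -0.68 after the GC and length correction. Their median level in DMSO was 30.1 CPM per kb with mean transcript lengths, against 11.8 with the longest. The cause of these changes was not tested.

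With the replicate block, 947 genes and 4 golgins were called, GOLGA5 being lost (log2 fold change -1.27). The labels do not pair the libraries, and same-numbered libraries deviated against each other (r = -0.19 across genes), so the crossed pairing was fitted too.

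Signs turned for these uncalled genes: ARL1 (0.28 and 0.16), ARF1 (-0.0650 and -0.24), GORASP1 (-0.29 and -0.23) and COG2 (0.23 and 0.45) after the GC and the GC and length correction, and RAB1A (0.0479) after the GC correction. With 1 library left out they ranged from -0.0227 to 0.462 for ARF1, -0.0628 to 0.353 for RAB6A, -0.497 to 0.464 for GORASP1 and -1.08 to 0.0659 for GORASP2. With 2 libraries a group and counts as reads, intervals within a library cover counting error only.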
